A study of Mus musculus with 3 samples.

Results

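Small nucleolar RNAs (snoRNAs) with at least 10 counts were described in mouse blood monocytes. A gene was a member if a transcript of biotype snoRNA was annotated for it, if its effective length was above 0 in all 3 libraries, and if its expected counts summed to 10 or more over the libraries. Effective length is the number of positions at which a fragment can start, the length by which TPM (transcript abundance scaled to a common total) divides. Of 1507 annotated snoRNA genes, among 55536 genes in all, 122 were members: 36 with Snora symbols, 9 with Snord symbols and 77 with other symbols. The members were thus chosen by their measured counts, so their levels are given as a description and without a test.

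SnoRNAs are stable nuclear RNAs, most of which are cut from the introns of host genes. Those with boxes C and D join fibrillarin (Fbl) and guide 2′-O-methylation of ribosomal and spliceosomal RNA. Those with boxes H and ACA join dyskerin (Dkc1) and guide pseudouridylation. A few, such as U3, U8, U22 and U17, act instead in the cleavage of precursor ribosomal RNA. Snord symbols name C/D genes and Snora symbols H/ACA genes.

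The libraries were 3 replicates of 1 group: peripheral blood monocytes of adult C57BL/6J mice aged 5 to 6 weeks, sex not collected, with no treatment named in the labels. Total RNA (100 ng) was depleted of ribosomal RNA before library preparation with a ScriptSeq kit. Recorded fragment sizes ran from 200 bp to 594 bp in library 1, 491 bp in library 2 and 1000 bp in library 3. All 3 libraries carry 1 donor record, so p-values here reflect only how far these libraries vary, and part of that may be technical. The gate for isolating the cells was not stated. The libraries held 27158565, 26541404 and 19917940 counts.

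All 8 monocyte markers had a mean of 1 TPM or more, with summed levels of 2309, 1919 and 1307 TPM in libraries 1, 2 and 3. Library 3 stood apart in other cells' markers. The 6 natural killer markers summed to 604, 504 and 1428 TPM, the 5 red cell markers to 3532, 3325 and 262 TPM, and the 5 neutrophil markers to 136, 122 and 8.44 TPM, with Ly6g and Mpo at 0 throughout. The 5 platelet markers summed to 15.3, 11.0 and 95.2 TPM, the 4 T cell markers to 21.2, 16.2 and 49.0 TPM and the 4 B cell markers to 33.1, 34.5 and 27.6 TPM. The part of these differences in the snoRNA results was not tested. In bulk RNA, fewer cells of a type and less RNA per cell cannot be told apart.

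Box C/D RNAs are shown first, because length decided which of them were kept. Sequences are those of GENCODE M21 transcripts on mm10, written 5′ to 3′ as DNA. Capitals mark TGATGA within the first 40 bases (box C) and CTGA within the last 20 bases (box D). Snord17, Snord15b, Snord22 and Snord118 were members. Snord21 and Snord87, at 94 and 87 bases, were left out with an effective length of 0.
Snord17 (chr2:144265979-144266216, minus strand): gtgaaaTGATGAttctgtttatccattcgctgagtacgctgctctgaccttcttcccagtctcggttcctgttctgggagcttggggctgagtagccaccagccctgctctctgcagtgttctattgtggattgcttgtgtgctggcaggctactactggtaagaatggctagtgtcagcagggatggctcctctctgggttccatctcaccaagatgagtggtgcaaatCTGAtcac
Snord15b (chr7:99479563-99479707, minus strand): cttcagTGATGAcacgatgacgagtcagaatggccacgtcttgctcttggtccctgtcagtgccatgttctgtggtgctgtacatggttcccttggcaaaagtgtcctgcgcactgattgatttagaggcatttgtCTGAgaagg
Snord22 (chr19:8725866-8725991, plus strand): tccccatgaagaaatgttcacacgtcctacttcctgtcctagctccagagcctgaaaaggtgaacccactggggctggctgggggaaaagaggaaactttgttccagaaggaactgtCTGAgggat
Snord118 (chr11:69073427-69073561, plus strand): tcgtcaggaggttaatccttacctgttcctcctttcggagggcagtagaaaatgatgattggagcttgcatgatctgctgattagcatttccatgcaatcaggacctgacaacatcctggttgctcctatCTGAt
Snord21 (chr5:107904555-107904648, plus strand): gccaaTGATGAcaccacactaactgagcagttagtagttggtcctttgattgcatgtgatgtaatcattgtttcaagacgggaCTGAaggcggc
Snord87 (chr1:9942463-9942549, minus strand): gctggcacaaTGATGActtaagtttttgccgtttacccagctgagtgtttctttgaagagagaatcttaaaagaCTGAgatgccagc

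Box H/ACA RNAs and some of the most counted members follow, with ACA in capitals where it lies within the last 8 bases. Scarna10, at 325 bases too long to print, carries boxes C and D in the same windows. Gm23262 and Snora81 have neither mark.
Snora73b (chr4:132352322-132352526, minus strand): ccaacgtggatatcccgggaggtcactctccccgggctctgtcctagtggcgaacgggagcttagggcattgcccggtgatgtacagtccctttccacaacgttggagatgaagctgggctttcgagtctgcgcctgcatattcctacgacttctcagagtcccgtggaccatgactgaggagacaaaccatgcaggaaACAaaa
Snora81 (chr16:23110756-23110933, plus strand): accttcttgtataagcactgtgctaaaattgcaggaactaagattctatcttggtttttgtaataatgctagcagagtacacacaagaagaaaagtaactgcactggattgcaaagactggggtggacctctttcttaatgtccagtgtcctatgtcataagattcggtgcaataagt
Gm23262 (chr7:111076060-111076227, minus strand): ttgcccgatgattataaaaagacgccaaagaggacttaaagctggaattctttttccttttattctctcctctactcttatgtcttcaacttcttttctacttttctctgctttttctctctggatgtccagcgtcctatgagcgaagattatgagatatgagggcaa
Gm22422 (chr16:56035753-56035887, minus strand): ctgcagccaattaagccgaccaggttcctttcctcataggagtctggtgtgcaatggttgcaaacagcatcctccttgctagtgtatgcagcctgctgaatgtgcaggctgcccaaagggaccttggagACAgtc

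Read on the RNA strand, ACA stood in the last 8 bases of 34 of 36 Snora members and of 56 of 77 members with other symbols. Boxes C and D stood together in 7 of 9 Snord members, in none of the Snora members and in 5 of the others. The shares over all 1507 annotated snoRNA genes were 46.8% for ACA and 20.8% for the C/D pair. Among 423 small nuclear RNA genes of 108 to 325 bases, 6.15% had the ACA and none the C/D pair. The search ignored overlap between motifs. A match is a description of letters only: Snord22 and Snord118, both C/D genes by symbol, show box D alone in these windows.

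The rule acted as a length limit. Each annotated snoRNA gene of 107 bases or fewer had an effective length of 0 in at least 1 library, and each gene of 108 bases or more was kept. That limit removed 88 of 98 Snord genes, 391 of 1367 genes with other symbols and no Snora gene. The count minimum then removed 6 Snora genes, 1 Snord gene and 899 others, of which 886 in all had no count in any library. Members were 109 to 325 bases long (median 134), and the left-out genes 35 to 107 bases (median 79). The 9 Snord members are therefore the long end of the C/D class and do not stand for it.

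**Figure D1:**
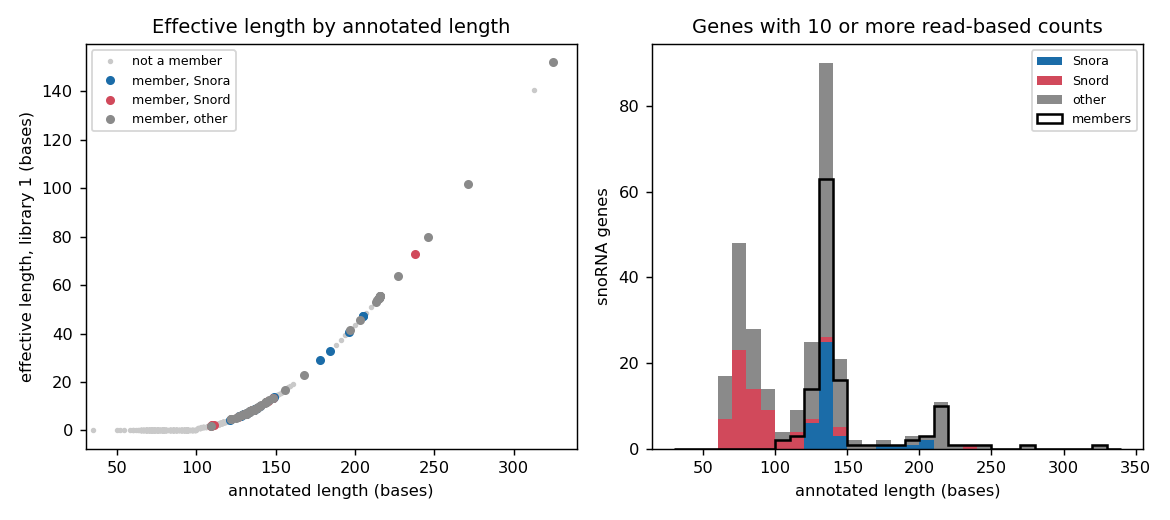
Left, effective length in library 1 (bases) against annotated length (bases) for all 1507 snoRNA genes, with the 122 members coloured by symbol and all genes of 108 bases or more above 0. Right, number of genes by length (bins of 10 bases) with 10 or more counts in the read-based tables, coloured by symbol, with the members outlined in black; the short peak, which holds most Snord genes, lies outside the outline.

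Short Snord genes left out by length still received counts. Among the left-out genes, 26 had 10 or more counts, 16 of them Snord genes, and all but 1 of the 26 lay in a host. Snord21, in an intron of the ribosomal protein gene Rpl5, held 1503, 2133 and 81.9 counts in libraries 1, 2 and 3, while its TPM was 0 in each. Snord87, in Snhg6, held 213, 646 and 4 counts at 0 TPM. Both were highest in library 2 and lowest in library 3. A TPM of 0 for these genes therefore does not mean that no reads were counted.

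At the threshold, Gm23722 (10 counts, all in library 2), Snora36b (0, 8 and 2) and Gm26175 (0, 10 and 1) lay just inside. Gm22748 (0, 0 and 9), Gm26493 (0, 9 and 0) and Gm24698 (0, 8 and 1) lay just outside. Tied with these were Gm22711 inside (11, 0 and 0), and Gm22781 (9, 0 and 0), Snora78 and Gm25617 (both 0, 9 and 0) outside. Of these 10 genes, Gm22711 and Gm22781 alone lie in no host and have a count in library 1.

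Members held 0.698%, 1.20% and 0.339% of all counts in libraries 1, 2 and 3 (mean 0.747% ± 0.434, SD, n = 3). Library 2 had the highest share and library 3 the lowest. On the TPM scale the shares were 12.1%, 17.1% and 7.83% (12.3% ± 4.67). TPM divides by effective length, whose median over the members was only 7.92, 8.95 and 5.11 bases, against 2094, 2099 and 2114 bases in protein-coding genes. Small RNAs at these lengths thus take up far more of the TPM total than of the reads. For 71, 45 and 99 of the members, a single count stood for more than 1 TPM in libraries 1, 2 and 3. CPM (counts scaled to the library's total count) is therefore given beside TPM.

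Most members were counted throughout: 99 in all 3 libraries, 15 in 2 of them and 8 in 1. There were 84 members with 100 or more counts and 43 with 1000 or more. In the fit of all genes against a level of 1 TPM (edgeR's quasi-likelihood test, Benjamini-Hochberg adjusted p at 0.05), 109 of 122 members passed above 1 TPM and 0 below. Over all 17664 genes tested, 43.2% passed above and 6.36% below. The rule used these counts, so nothing is read from that comparison. The 13 members that did not pass had at most 25 counts, and include Snord118, Snora61 and Snora36b.

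Counts were concentrated in 4 members, which together held 56.3%, 56.1% and 53.2% of the members' counts. Gm23262, a 168-base gene in the translation factor gene Eif4g2, measured 1121, 2713 and 347 CPM. Gm22422, in Trmt10c, a gene for a subunit of mitochondrial RNase P, measured 817, 1858 and 203 CPM. Library 2 was highest and library 3 lowest for both, with a spread across libraries of about their mean (1394 ± 1206 and 960 ± 837 CPM, SD, n = 3). Gm23245, in the chaperonin gene Cct6a, measured 1019, 1172 and 368 CPM. Scarna10, in the condensin gene Ncapd2, measured 971, 1003 and 886 CPM (954 ± 60.2). Scarna10 is U85, a Cajal body RNA that guides modification of U5 small nuclear RNA, and it was the steadiest of the 4.

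Per length, the 6 members with other symbols of the highest mean TPM were Gm22422, Gm23245, Gm23262, Gm23734, Gm25835 and Gm25848. Their mean levels ran from 25805 ± 16849 TPM for Gm22422 down to 2429 ± 152 TPM for Gm25848 (SD, n = 3). Gm22422 and Gm23245 (25107 ± 6262 TPM) did not differ beyond their spread. Gm23734, a 109-base gene in Mgat5, had an effective length of 1.09 to 2.06 bases, so its 10512 ± 6123 TPM rests on 2327, 4137 and 355 counts divided by those lengths. Gm25835, in Eif4a1, measured 4956, 4764 and 3576 TPM. Gm25848, in Fbxo45, measured 2339, 2344 and 2604 TPM, and was highest in library 3 on this scale.

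Snora81, in the translation factor gene Eif4a2, led the Snora members with 2813, 2034 and 1586 TPM. Snora74a, U19, measured 1075, 831 and 1792 TPM and was highest in library 3. Snora62, E2, in the ribosomal protein gene Rpsa, measured 558, 1100 and 199 TPM, with library 2 high. Snora33 in Rps12 (546 ± 286 TPM), Snora30 in Srcap (458 ± 434), Snora24 in Snhg8 (450 ± 163), Snora7a in Rpl32 (347 ± 88.7) and Snora20 in Tcp1 (280 ± 301) came next. These 5 did not differ from their neighbours beyond the spread over libraries. All 5 were lowest in library 3. Without library 2 the mean was 215 TPM for Snora30 and 113 TPM for Snora20. The order also depends on the kind of table. In the read-based tables, which the authors made directly from reads, the mean of Snora24 was 1267 TPM. That of Snora74a was 1200 TPM there, that of Snora62 397 TPM and that of Snora33 198 TPM.

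Snord22, U22, from the non-coding host Snhg1, led the Snord members with 3583, 7121 and 2079 TPM. Snord15b and Snord15a, the U15 RNAs of the ribosomal protein gene Rps3, measured 2529, 5473 and 2029 TPM and 495, 598 and 462 TPM. Library 2 was highest for all 3 genes. Snord17, in the sorting nexin gene Snx5, measured 835, 875 and 791 TPM. It had the lowest relative spread of the Snord members on this scale. Snord23 in Nop53 (322 ± 128 TPM), Snord89 (310 ± 82.6) and Snord8 in Chd8 (240 ± 190) had 109 or 110 bases and at most 123 counts in a library. Without library 2 the mean of Snord8 was 132 TPM. Snord67 in Ckap5 had 13 counts, all in library 2; its 0 counts allow up to 12.0 and 31.1 TPM in libraries 1 and 3 (3 counts each).

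**Figure D2:**
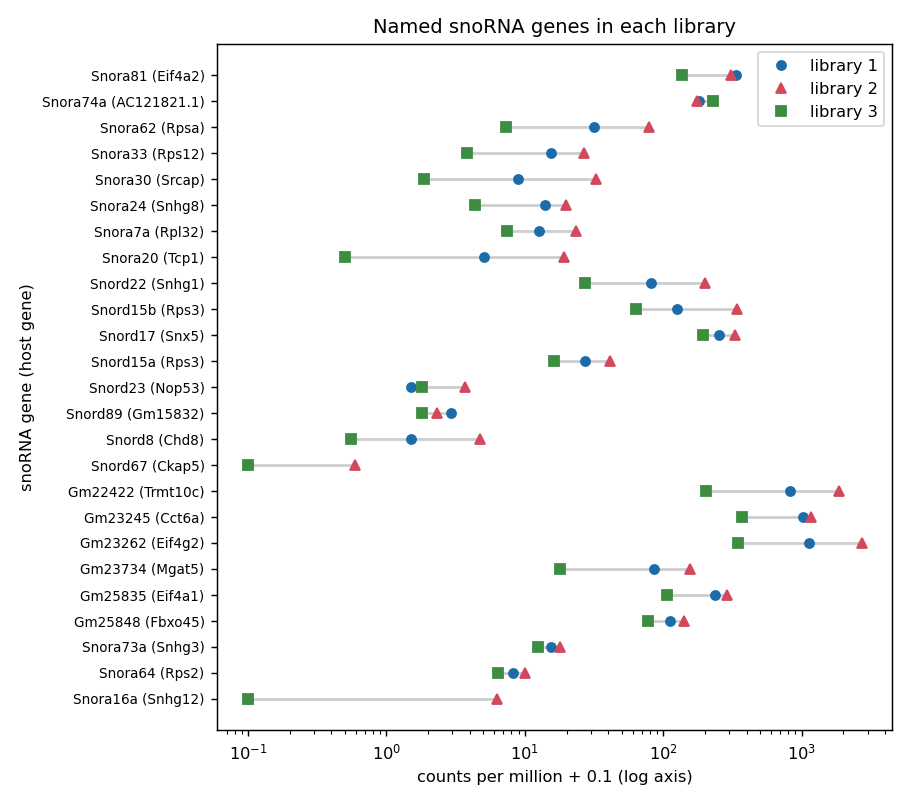
CPM + 0.1 (log axis) of the 25 named snoRNA genes, with the host gene in brackets and 1 marker per library; grey lines join the lowest and highest library. Library 2 lies highest and library 3 lowest in most rows, and the spread differs between genes: Gm23262 runs from 347 to 2713 CPM and Snora74a from 176 to 227 CPM.

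The median Snora level lay under the median Snord level in each library: 116, 131 and 89.8 TPM against 330, 457 and 411 TPM. The difference of the medians on the log2(TPM + 0.1) scale was -1.51, -1.80 and -2.20 (mean -1.83 ± 0.35, SD, n = 3). The order turned when counts were not divided by length, where the same difference of medians was 0.64 on the log2(CPM + 0.1) scale. The direction between the classes thus depends on the division by effective length, and on the 9 Snord genes long enough to be kept. In the read-based tables effective lengths were 22.4 to 69.8 bases for Snora and 20.4 to 94.4 bases for Snord members. The medians of the mean levels there were 99.4 TPM for Snora and 287 TPM for Snord members, the same direction as in the gene tables. The median of the members with other symbols was 79.7, 110 and 42.4 TPM.

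The RNAs that take part in cleavage of precursor ribosomal RNA formed a list of 19 genes, of which 14 were members and 5 had an effective length of 0. U3, which pairs with the 5′ part of the precursor in the first cleavages, is annotated as 10 members: Rnu3a and Rnu3b1 to Rnu3b4, each under 2 gene identifiers. Summed over the 10, U3 measured 633, 1597 and 52.2 CPM in libraries 1, 2 and 3. It made up 9.06%, 13.3% and 1.54% of the members' counts. Library 2 exceeded library 3 by 30.6 times, a wider gap than that of the steadier members Scarna10 and Snora74a. Other members also had wide gaps: Snora20 measured 19.1 CPM in library 2 and 0.40 CPM in library 3. In the read-based tables U3 held 29092, 66141 and 2633 counts. On the TPM scale the sum was 2819, 5680 and 296.

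The paired identifiers of U3 differ by 1 base at the 3′ end. The 4 Rnu3b genes of 215 bases have identical sequence, as have the 4 of 216 bases, and the longer adds a single C. The Rnu3a pair of 213 and 214 bases differs by a final T in the same way. Capitals mark box D.
Rnu3b4, 215 bases (chr11:87462286-87462500, plus strand): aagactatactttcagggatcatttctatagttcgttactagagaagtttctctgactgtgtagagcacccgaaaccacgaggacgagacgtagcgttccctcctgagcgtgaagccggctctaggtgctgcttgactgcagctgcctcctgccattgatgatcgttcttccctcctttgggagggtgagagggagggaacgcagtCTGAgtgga
Rnu3b1, 216 bases (chr11:87443237-87443452, plus strand): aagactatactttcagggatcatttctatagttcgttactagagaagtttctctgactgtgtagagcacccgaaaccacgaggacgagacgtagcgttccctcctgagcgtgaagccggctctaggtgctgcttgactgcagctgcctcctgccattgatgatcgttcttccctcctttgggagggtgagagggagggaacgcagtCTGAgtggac
Rnu3a, 214 bases (chr10:40258467-40258680, plus strand): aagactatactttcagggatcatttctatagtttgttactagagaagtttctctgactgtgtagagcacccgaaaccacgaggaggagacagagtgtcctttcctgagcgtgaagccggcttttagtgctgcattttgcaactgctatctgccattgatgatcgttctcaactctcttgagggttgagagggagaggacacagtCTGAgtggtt

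Counts fell on different identifiers in the 2 kinds of table. In the gene tables each 215-base Rnu3b gene held 2097, 6253 and 0 counts, and each 216-base gene 578, 1201 and 127 counts. In the tables that the authors made directly from reads, each 215-base gene held 0, 2.1 and 0 counts and each 216-base gene 4807, 11833 and 432 counts. The assignment was thus reversed between the tables, and a level for any single Rnu3b identifier is uncertain. The family sum was steadier: read-based counts exceeded gene-table counts by 1.69, 1.56 and 2.53 times. Rnu3a summed to 239, 474 and 26.7 CPM in the gene tables. Reads from identical copies cannot be told apart.

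The other precursor-cleavage members differed in level. Snora73a and Snora73b, the U17 RNAs of Snhg3, together measured 32.7, 49.2 and 26.8 CPM, and Snora73a alone was among the 3 Snora members of lowest spread (15.2 ± 2.67 CPM). Their sequences are 98.0% identical, so reads could be divided between them. Snord22 measured 82.0, 201 and 27.2 CPM. Snord118, U8, which acts in processing of the large subunit RNAs, held only 3, 12 and 4 counts in the gene tables. In the read-based tables it held 796, 1707 and 391 counts. Of the 5 genes left out, Snord14c and Snord14d, U14 copies in introns of Hspa8, held 252, 424 and 6.68 counts and 166, 262 and 17.6 counts. Snord13, U13, held 4, 58 and 3 counts, and Snord14a and Snord14e held counts in library 1 only.

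The 19 genes of the imprinted snoRNA list (Snord64, Snord107 and the Snord116 copies) all had an effective length of 0. They held 0 counts in the gene tables and 0 in the read-based tables. These RNAs are known from neurons. The list was set by symbol, so imprinted snoRNA genes under other symbols would not be on it.

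**Figure D3:**
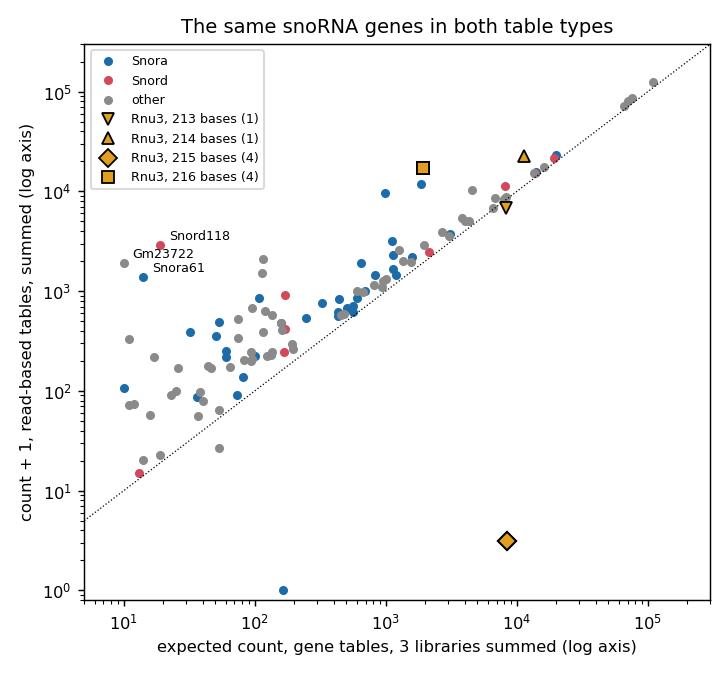
Counts of each member summed over 3 libraries in the gene tables (x) and, plus 1, in the read-based tables (y), both on log axes; the dotted line marks equality and the number of genes at each Rnu3 point is in brackets. Most points lie on or above the line, the 215-base Rnu3b genes far under it, and Snord118, Snora61 and Gm23722 far above it.

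Across all members the read-based counts were higher by a median of 1.72 times, against 1.30 times in protein-coding genes. The ratio exceeded 2 in 54 of 122 members (44.3%) and in 9.03% of protein-coding genes, and exceeded 10 in 9 members. Gm23722, in Rnf149, held 0, 10 and 0 counts in the gene tables and 676, 595 and 643 in the read-based tables. Snora61, in Snhg12, held 0, 5.70 and 8.32 counts against 594, 699 and 91.0. Snora23, in Ipo7, held 741, 828 and 302 counts against 4885, 4601 and 2267. Low counts in the gene tables are therefore no sign of a low level for these genes. The 4 most counted members moved little; Gm22422 held 22192, 49321 and 4053 counts against 25788, 54842 and 4903.

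Most members were higher in library 2 and lower in library 3. Between single libraries there is no replicate check, and fold changes are on the log2(CPM + 0.1) scale. From library 1 to library 2 the median member changed by 0.83, with 53 of 122 members more than 2-fold higher and 13 lower. Among 9293 genes of 1 TPM or more, 3.02% were more than 2-fold higher, 2.96% lower, and the median was -0.01. From library 1 to library 3 the median member changed by -0.82, with 12 more than 2-fold higher (8.83% of all genes) and 53 lower (5.17% of all genes), while the median of all genes was 0.10. From library 2 to library 3 it changed by -1.41, with 4 more than 2-fold higher (9.20% of all genes) and 79 lower (5.78% of all genes), while the median of all genes was 0.12. These member counts come from the values that also set the count minimum, and they are a description.

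Library 2 was the highest of the 3 in 89 members and library 3 the lowest in 82 (CPM). By TPM these counts were 68 and 56. Among 8302 protein-coding genes of 1 TPM or more, library 2 was highest in 25.3% and library 3 lowest in 32.4%. Small nuclear RNA genes were also lower in library 3 than in library 2: over 51 of them the median was -1.01, with 27 more than 2-fold lower. From library 1 to library 3 their median was -0.12, against -0.82 in the members. In the read-based tables these 2 medians lay closer, at -0.64 and -0.83. There 45.1% of the small nuclear RNA genes and 45.9% of the members were more than 2-fold lower. On the TPM scale the medians of these 51 genes were -0.25 for library 3 over 2, 0.32 for library 3 over 1 and -0.02 for library 2 over 1. By CPM, host genes lay near 0 for library 3 over 2, with a median of -0.07 over 87 hosts. Of these, 9 (10.3%) were more than 2-fold lower, beside 5.78% of all genes. Library 3 was the lowest of the 3 in 43 hosts (49.4%). On the TPM scale, the median member changed by -0.51 from library 2 to library 3 and the median of all genes by 0.37. Library 3 had the widest recorded fragment range. Fragment range, cell makeup and library cannot be told apart, since each library has its own.

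Short genes left out by length were also lower in library 3. Over the 26 left-out genes with 10 or more counts, the median from library 2 to library 3 was -3.68, and 25 were more than 2-fold lower. Some of these genes reached 10 counts through library 2 alone, such as Snord71 (0, 17 and 0). For them a fall from library 2 is built into the choice, and its size rests on the constant added to CPM. In the read-based tables the median of the 26 genes was -3.00, with 22 more than 2-fold lower. The values of the 26 genes are thus a description. By CPM in the gene tables, the median was -1.40 in the 99 members under 160 bases. It was -1.64 in the 23 members of 160 bases or more, 10 of which are identifiers of U3. In the read-based tables the order of the 2 length groups turned, with -1.35 and -1.03. It was -1.39 over the 74 members with no near-identical gene. By CPM 10 members were highest in library 3, and by TPM 29. Among those by CPM, Gm23442, in Prrc2a, measured 38.9, 47.5 and 86.7 CPM, and Gm22988, in Eif4a1, measured 34.3, 70.8 and 73.8 CPM. Gm25835, in the same host as Gm22988, was lowest in library 3, at 237, 287 and 107 CPM.

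**Figure D4:**
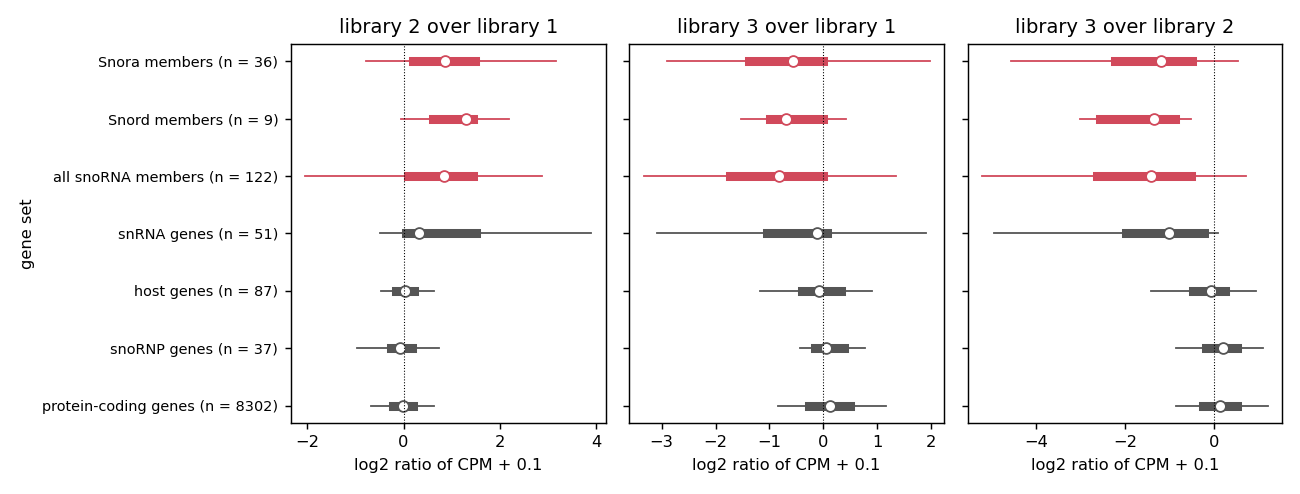
Log2 ratio of CPM + 0.1 between pairs of libraries for the members (red) and other gene sets (grey), with the number of genes in brackets; circles are medians, thick bars the middle 50% of genes and thin bars the middle 90%. The members and small nuclear RNA genes shift away from 0, to medians of -1.41 and -1.01 in library 3 over library 2, while host and protein-coding genes stay near 0.

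The spread of CPM between libraries, as the coefficient of variation, had a median of 61.5% over the 84 members with 100 or more counts. It was 33.2% over 38 small nuclear RNA genes and 22.4% over 10636 protein-coding genes of that depth. The lowest in Snora members were Snora74a (14.4%), Snora73a (17.6%) and Snora64 in Rps2 (22.6%). The highest were Snora30 (112%), Snora20 (120%) and the 137-base Snora16a identifier (173%). Snora20 held 135, 508 and 8 counts. The 137-base Snora16a held 0, 165 and 0 counts and its 136-base partner 156, 144 and 23.6, so the pair is uncertain in the way of U3. Among Snord members the lowest were Snord89 (25.0%), Snord17 (26.2%) and Snord15a (44.9%), and the highest Snord15b (82.8%), Snord22 (86.0%) and Snord8 (101%).

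Nearly all members lay in a host gene on the same strand: 116 of 122, against 39.7% of the 1385 other annotated snoRNA genes. The exceptions were both Rnu3a identifiers, Snord118, Snora57, Snora17 and Gm22711. The 116 members lay in 87 hosts. Ribosomal protein genes held 21 members (17.2%), Snhg genes or Gas5 11 (9.02%) and genes of translation factors 10 (8.20%). Among the 1385 other snoRNA genes these shares were 2.89%, 16.9% and 0.578%, so Snhg hosts were the more frequent among genes that are no members. That 16.9% is 234 genes in 10 hosts, and only 23 of the 234 had a host with a mean of 1 TPM or more. All 11 members in Snhg genes or Gas5 had such a host. The strand setting of the counting was not stated, and reads of unspliced host RNA within a member's bounds cannot be told from those of the snoRNA.

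The host genes themselves were mostly expressed. In the same fit (edgeR's quasi-likelihood test), 79 of 87 hosts passed above 1 TPM and 0 below, beside 43.2% of all genes and 54.0% of protein-coding genes. The 8 that passed neither way were Tex14, Cwf19l1, Epb41l4aos, Fbxo45, Qtrt2, Sec24a, St3gal2 and Zbed3. Where more than 1 gene contained a member, that of the highest mean TPM was taken as host. Members were also kept by counts that may hold reads of unspliced host RNA. The hosts were thus chosen in part by level, and the comparison with all genes is a description. Tex14, a gene known from germ cells, contains the 8 Rnu3b members and measured 0.46, 0 and 0.38 TPM. U3 genes have their own promoters. Fbxo45 measured 1.48, 1.07 and 1.79 TPM around Gm25848, one of the highest members. With each host counted once per member, host level had a median of 146 TPM over the 21 members in ribosomal protein genes. Over the 11 members in Snhg genes it was 7.77 TPM, the level of Snhg12, which holds 4 of them.

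Across the 116 members in hosts, mean TPM of member and host had a Spearman correlation of 0.17; the points share libraries and many share hosts, so this is a description. Members of 1 host differed: over 18 hosts with 2 or more, the highest member exceeded the lowest by a median of 7.71 times (1.15 to 126). The 18 include Tex14 (4.10 times), which holds only Rnu3b identifiers, and Snhg12 (10.5 times), which holds both Snora16a identifiers. There the assignment of counts to identifiers is uncertain. The 8 Rnu3b identifiers are also among the 116 members of the correlation. Cct6a, at 26.0, 14.8 and 28.9 TPM, held both Gm23245 (25107 TPM) and Snora15 (199 ± 41.2 TPM). Rpsa held Gm24044 (2154 ± 1676 TPM), Snora62 (619 ± 454) and Gm26448 (105 ± 17.6). Taf1d held Gm25791 (2117 ± 1214), Gm22620 (74.4 ± 48.4) and Gm24455 (28.8 ± 27.3). Eif4a2 held Snora81 and 2 members of 266 and 457 TPM. From library 2 to library 3, 49 of the 116 members were lower while their host was higher, and 51 were lower with a lower host.

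**Figure D5:**
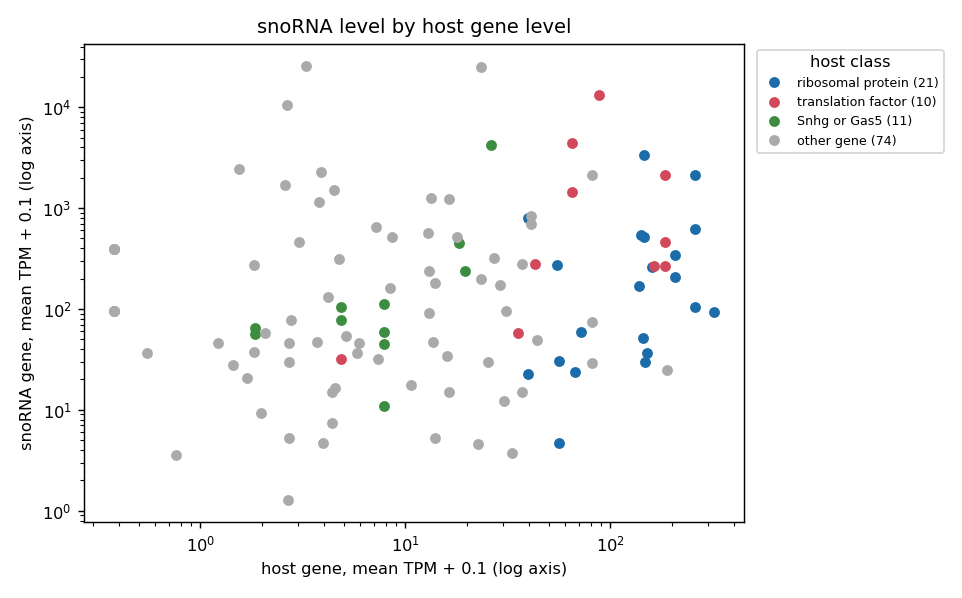
Mean TPM + 0.1 of each of 116 snoRNA genes (y) against mean TPM + 0.1 of its host gene (x), both on log axes and over 3 libraries, coloured by host class with the number of members in brackets. Members of similarly expressed hosts spread over several orders of level. The median member level was 368 TPM in translation factor hosts, 168 TPM in ribosomal protein hosts, 93.7 TPM in other genes and 78.1 TPM in Snhg or Gas5 hosts.

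Genes for proteins of snoRNA particles, snoRNA maturation and precursor processing were read from a list of 37, whose levels the rule did not use. All 37 were found; 29 passed above 1 TPM, 1 below and 7 neither way (edgeR's quasi-likelihood test, Benjamini-Hochberg adjusted over all genes), with 43.2% of all genes above. All 4 core proteins of C/D particles passed above. Nop58 measured 26.5, 30.5 and 28.8 TPM, Nop56 17.1, 14.6 and 21.5, Snu13 11.8, 10.4 and 11.5, and the methyltransferase Fbl 8.09, 5.01 and 6.34. Of the 4 core proteins of H/ACA particles 3 passed above, among them the pseudouridine synthase Dkc1 at 5.30, 6.79 and 7.70 TPM (edgeR adjusted p = 1.01e-07). Gar1 measured 0.86, 0.49 and 0.52 TPM and passed neither way (edgeR adjusted p = 0.512). The median of the C/D core was 14.5 TPM and that of the H/ACA core 4.46 TPM.

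Assembly factors were lower, with a median of 1.64 TPM over 14 genes: 7 passed above, 1 below and 6 neither way. Naf1, which loads H/ACA proteins, was the one below, at 0.30, 0.48 and 0.27 TPM (edgeR adjusted p = 0.0311). No gene of the list was below 1 TPM without library 1, without library 2 or with DESeq2. With TPM scaled over protein-coding genes alone all 37 passed above, as did all 122 members and 86 of 87 hosts. The share of all genes above on that scale is not given here, so nothing is read from the 37. The call on Naf1 thus rests on single libraries, the method and the scale. Ruvbl1, a helicase of the assembly complex, measured 5.83, 4.18 and 6.44 TPM and passed above. All 9 genes of the U3 particle and early ribosome assembly passed above, from Imp4 (2.36 ± 0.37 TPM) to Npm1 (81.4 ± 6.03 TPM). The U3-specific protein Rrp9 measured 3.68, 3.84 and 2.79 TPM, with no drop in library 3 of the size seen in U3 itself. All 6 genes of trimming and intron turnover passed above, among them the exonuclease Xrn2 (34.2 ± 2.85 TPM) and the debranching enzyme Dbr1 (5.77 ± 1.88 TPM). From library 2 to library 3 the median of the 37 genes changed by 0.21 on the log2(CPM + 0.1) scale, and 0 were more than 2-fold lower.

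Copies limit what single members can show. Another annotated gene of at least 95% identity over at least 90% of the length was found for 48 members, and an identical one for 10. The full sequence of 32 members also lay within a longer transcript of another gene. For 54 members neither held. Read-based counts exceeded gene-table counts more than 2-fold in 24 of the 48 with a near-identical gene and in 30 of the 74 without, so copies did not mark all such members.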

How the data were processed

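Expected counts, TPM and effective lengths were read from the gene tables that the authors deposited for each library (mm10, GENCODE M21, per the file headers and accompanying notes); expected counts divide reads among similar transcripts, so they need not be whole. The authors' M4 tables and their read-based M21 transcript tables (estimated counts and TPM) were alternatives. The quantification programs and strand setting: not given in the sources used here. CPM was computed from expected counts over all rows. Rounded expected counts entered an intercept-only model of edgeR 4.0.16 (glmQLFit; offset by the count of 1 TPM, summed count of 10 or more), a two-sided test of 1 TPM with Benjamini-Hochberg adjustment; F came from the deviances. The fit was tested on simulated data. Sequences were compared with BLAST 2.17.0. Some sequences are not reported here. Alternatives used DESeq2 1.42.0 and limma 3.58.1. Rows that name no gene stayed out of the tests and held at most 0.000571% of counts. Named members were those of highest TPM or of extreme spread per symbol group, those at the threshold, and fixed lists; Scarna10, Snora15, Snora23, Gm22988, Gm23442, Gm24044, Snord21, Snord87 and the genes of the closing section were named after their values were seen. Members and lists were chosen with earlier results of these data known. Limits for a count of 0 and all depths cover counting error only.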

Additional observations from a re-analysis of the deposited data

How the results depend on the processing

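No paired analysis was possible because the series holds 1 group. Counts of genes above 1 TPM stayed within 1.5 times under every alternative tried. They were 98 to 122 members, 22 to 37 of the 37 listed protein genes and 68 to 86 hosts. The upper ends came from TPM scaled over protein-coding genes alone, for which no share of all genes is given. Leaving out each library gave 104 to 107 members, 28 to 29 protein genes and 76 to 78 hosts. The Snora minus Snord difference ranged from -2.00 to -1.65 without 1 library, was -1.39 with members of 100 or more counts, and reversed to 0.64 on CPM, by construction without length. The share of counts was 0.519% to 0.950% without 1 library. The read-based tables held 284 genes with 10 or more counts in place of 122; without 1 library (chosen after seeing the data) 110 to 120 remained past the minimum. For library 2 over 1, library 3 over 1 and library 3 over 2, the median member changed by 0.52, -0.13 and -0.51 on TPM, by 0.58, -0.54 and -0.93 with a pseudocount of 1 CPM, and by 0.85, -0.96 and -1.52 on TMM-scaled CPM. It changed by 0.67, -0.83 and -1.24 in the read-based tables and by 0.85, -0.98 and -1.64 with 100 or more counts. Each kept its direction; the cause was not tested. Of the 25 named genes, 13 moved by more than 1 SD in the read-based tables and none in the M4 tables (24 matched). Leaving out 1 of 3 libraries cannot move a mean by 1 SD, so that measure says nothing about single libraries. Without library 2, however, 9 of the 25 fell by more than 1.5 times, to 113 TPM for Snora20, 215 for Snora30, 378 for Snora62, 132 for Snord8, 2831 for Snord22, 16954 for Gm22422 and 8494 for Gm23262, and to 0 for Snord67 and 1 Snora16a identifier. None moved so far without library 1 or 3, or in the M4 tables. The kind of table mattered more by this measure: 18 of the 25 moved by more than 1.5 times on the read-based TPM. Gm22422 fell there from 25805 to 10788 TPM and Gm23245 from 25107 to 9510 TPM, while Snora24 rose from 450 to 1267 TPM. Effective lengths of a few bases limit TPM of members.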

Other observations

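Short snoRNA genes, which have no usable TPM in the gene tables, were read in the read-based tables as values only. There, 109 genes with an effective length of 0 held 10 or more counts, 54 of them Snord genes, and 105 of the 109 lay in host genes. Gm22879, a 74-base gene in the ribosomal protein gene Rpl7a, held 5902, 7684 and 382 counts in libraries 1, 2 and 3, and 0 in the gene tables. Snord87 held 1859, 5628 and 102 counts. Snord57, in Nop56, a gene for a C/D core protein, held 1435, 2795 and 294 counts and was listed at 0 in the gene tables. Gas5, a non-coding gene known as a snoRNA host, held 7 such genes. In CPM, library 2 was highest in 83 of the 109 and library 3 lowest in 85, the order seen in the members.

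Cajal body RNAs that carry the biotype scaRNA are no members and were counted as well. The 5 with the most counts are given first. Gm22009 measured 817, 851 and 408 CPM, and Scarna2 measured 384, 237 and 194 CPM. Gm22767 measured 94.9, 259 and 61.6 CPM. Scarna13 measured 101, 126 and 75.7 CPM, and Scarna6 81.9, 109 and 50.9 CPM. These 5 were lowest in library 3, but Gm25492, at 31.7, 22.7 and 52.2 CPM, was highest there. Over the 18 such genes with 10 or more counts and an effective length above 0, the median change from library 2 to library 3 was -1.08 on the log2(CPM + 0.1) scale, with 10 more than 2-fold lower and 3 more than 2-fold higher.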
